A study of Mus musculus with 6 samples.

Results

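Ly6k, Cfap53, Nxpe2, Cdcp1, Fbxo21 and Mbd1 are 6 of the 17460 genes listed for the livers of control and Blnc1 LKO mice kept on a NASH diet. They were selected on the measured values of these same livers, as genes whose 3 LKO values all lay above the 3 control values, so their levels and fold changes are given as descriptions with no test. All 6 passed the filter on low values (a normalized read count of at least 1 in at least 3 livers), as did 17297 genes in all. Of these genes, 925 (5.35%) had every LKO value above every control value, and that share is the background against which the choice was made.

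The study examined how loss of Blnc1, a long noncoding RNA, in the liver alters diet-induced nonalcoholic steatohepatitis (NASH). Polyadenylated liver RNA was sequenced from 3 control and 3 Blnc1 LKO mice. All 6 mice were C57BL/6, were 9 months old and had eaten a NASH diet containing fructose, trans fat and cholesterol for 24 weeks. LKO mice were Cas9 transgenic mice, with Cas9 expressed throughout the body, that received an adenovirus carrying a pair of guide RNAs against Blnc1 through the tail vein. In the high-fat diet experiment of the same study the controls were Cas9 transgenic mice given a GFP adenovirus, and the vector of the NASH controls is not given in the sources used here. By the study's own account adenovirus reaches hepatocytes and transduces the other liver cells poorly, so the deletion falls mainly on hepatocytes within whole liver tissue.

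Recovered reads ran from 65384969 to 89350181 per liver. Blnc1 itself was not analysed here, so its deletion was not checked in these livers. The labelled tissue was checked against 10 hepatocyte markers, which together made up 7.62 to 8.70% of all values in every liver. Nothing in the labels says whether the livers came from separate litters or cages, and p-values measure only the spread between these samples.

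The 6 genes belong to different families. Ly6k encodes a small GPI-anchored surface protein of the Ly6/uPAR family, known from male germ cells, where it pairs with Tex101 and is needed for sperm to reach the egg. Cdcp1 encodes a transmembrane glycoprotein with CUB domains that Src-family kinases phosphorylate, that then binds protein kinase C delta, and that plasmin and other serine proteases can cleave at the cell surface. Cfap53 encodes a protein of motile cilia and sperm flagella that is required for left-right body asymmetry. Nxpe2 encodes a member of the neurexophilin and PC-esterase domain family. Fbxo21 encodes an F-box protein, the substrate-binding part of an SCF ubiquitin ligase built on Skp1, Cul1 and Rbx1. Mbd1 encodes a nuclear protein that binds methylated CpG sites and recruits the histone methyltransferase Setdb1 through Atf7ip. Hepatocytes are not known to carry motile cilia, and the liver cells with a cilium, the cholangiocytes, have a primary one.

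The genes fell into 2 transcripts that were the rarest in controls and had large differences (Cfap53 and Ly6k), and 4 others. The LKO means of these 4, commoner in controls, were 1.36 to 1.62 times the control means. In controls the levels per length, in TPM computed over exonic bases, ran from 38.4 for Fbxo21, 19.5 for Nxpe2 and 16.9 for Mbd1 down to 1.11 for Cdcp1, 0.497 for Ly6k and 0.0651 for Cfap53. No neighbours in this order had overlapping ranges in controls. In LKO livers Ly6k, at a level per length of 3.73 ± 1.67 (SD, n = 3), stood above Cdcp1, at 1.76, and the ranges of Cdcp1 and Cfap53, at 1.28 ± 0.638 (SD, n = 3), overlapped.

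**Figure D1:**
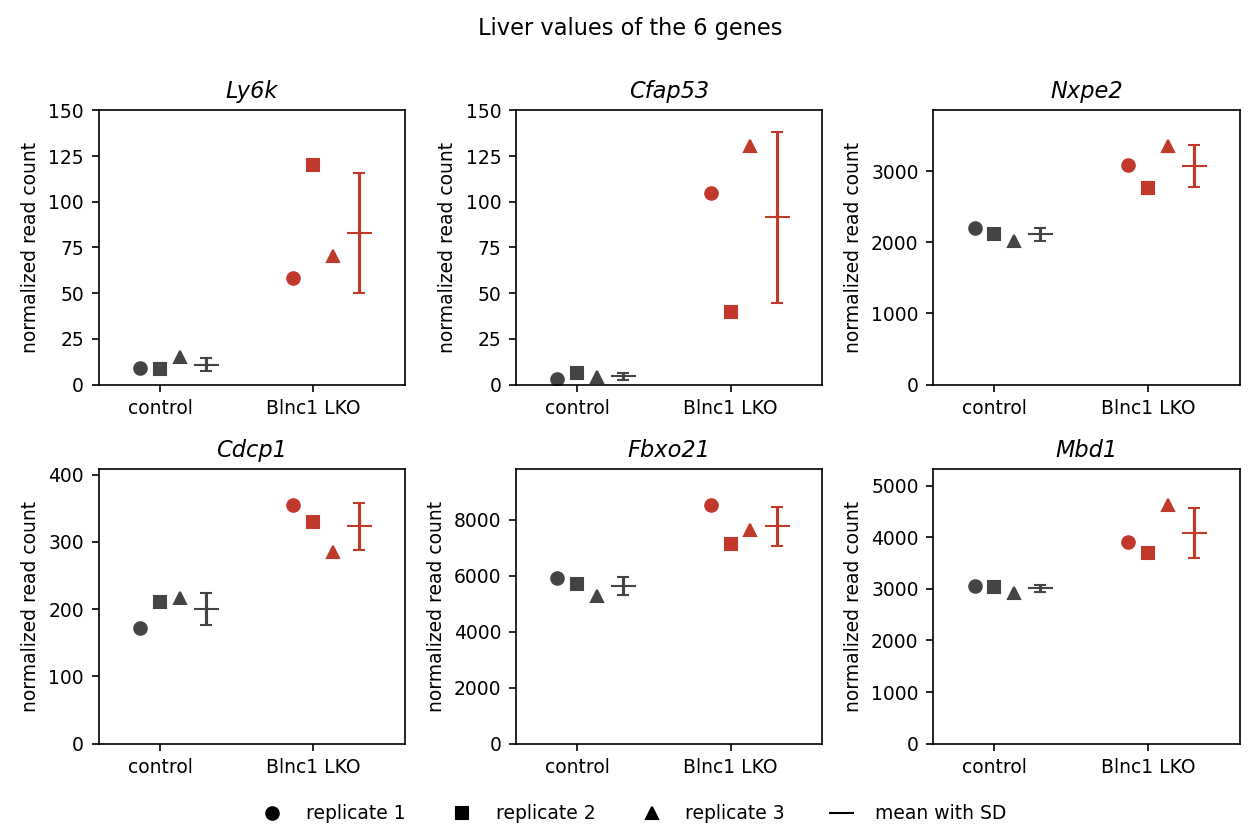
Normalized read count (y axis, from 0) of each of the 6 genes in the 3 control and 3 Blnc1 LKO livers. Ly6k and Cfap53 share a scale, and each other panel has a different one. Points are livers and bars are the mean with its SD; in every panel the lowest LKO liver sits above the highest control liver, by a factor between 1.20 (Fbxo21) and 6.17 (Cfap53).

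Of the surface proteins, Ly6k was nearly silent in control livers, with normalized read counts of 9.32, 8.52 and 14.9 in control 1 to 3. In Blnc1 LKO 1 to 3 it reached 58.3, 120.3 and 70.2. The groups did not overlap, and the lowest LKO liver held 3.91 times the value of the highest control. The means were 10.9 ± 3.48 in controls and 82.9 ± 32.9 in LKO livers (SD, n = 3 each), a ratio of 7.59. On the log2(value + 1) scale the difference was 2.78 with a limma SE of 0.34, the rank 9 of 17297 when all genes were ordered from the most raised.

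The Ly6k values rest on few reads. The controls held 10, 8 and 14 reads and the LKO livers 49, 128 and 84. The exact 95% Poisson interval of the control 3 count was 7.65 to 23.5 and that of the Blnc1 LKO 1 count, the lowest of the LKO livers, 36.3 to 64.8. Such intervals cover counting error only. In controls the SD was 31.9% of the mean where counting alone gives 30.6%, and in LKO livers 39.7% where counting gives 10.7%.

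Ly6k lies on the minus strand of chr15:74796874-74799986 (GRCm38, GENCODE M21), with 829 exonic bases. Its exons share 395 bases with exons of Gm17189, an antisense gene on the opposite strand that was not analysed here. The library kit does not mark strand, so reads from Ly6k and from Gm17189 cannot be told apart over those bases.

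Cdcp1 was listed at normalized read counts of 172.5, 211 and 216 in controls. The LKO livers had 355, 330 and 286. The lowest LKO value was 1.32 times the highest control. The means were 199.9 ± 23.9 and 323 ± 34.9 (SD, n = 3 each), a ratio of 1.62 and a log2 difference of 0.69 (SE 0.14). The order of the LKO livers differed from that of Ly6k, with Blnc1 LKO 3 the lowest of the 3.

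The Cdcp1 promoter is shown because Cdcp1 and the neighbouring Clec3b, described below, stood on opposite sides of their control values. The gene occupies chr9:123170824-123216038 on the minus strand. The window, chr9:123215989-123216288 of GRCm38.p6 from RefSeq, runs from 250 bases before to 50 bases after the start and is written 5′ to 3′ on the gene's strand. Capitals mark the GC box, GGGCGG, searched on both strands.
Cdcp1: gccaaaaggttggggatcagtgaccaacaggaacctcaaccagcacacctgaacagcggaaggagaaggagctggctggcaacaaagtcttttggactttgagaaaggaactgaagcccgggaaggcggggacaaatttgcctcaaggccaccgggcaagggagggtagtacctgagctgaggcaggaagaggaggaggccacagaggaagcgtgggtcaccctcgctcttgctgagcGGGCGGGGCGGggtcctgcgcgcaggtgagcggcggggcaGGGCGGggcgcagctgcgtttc

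It held 3 matches to the GC box, a motif bound by Sp1-family factors, and the first pair of them overlapped by a base. The same letters stood in 35.7% of the 32851 promoter windows of that length. GC made up 62.7% of the Cdcp1 window, against a median of 52.7% over all windows, and the ratio of observed to expected CpG was 0.581 against 0.384.

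Cfap53, the cilium gene, had the largest difference of the 6. Normalized read counts were 2.80, 6.39 and 4.26 in controls, from 3, 6 and 4 reads. In the LKO livers they were 104.7, 39.5 and 130.3, from 88, 42 and 156 reads. Even the lowest LKO liver, Blnc1 LKO 2, stood 6.17 times above the highest control. The means were 4.48 ± 1.81 and 91.5 ± 46.9 (SD, n = 3 each), a ratio of 20.4. The log2(value + 1) difference was 3.96 (SE 0.47), and only 2 of the 17297 genes were raised further on that scale.

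The pseudocount of 1 pulls the Cfap53 difference down, since a control liver holds so few reads. It was 4.23 with a pseudocount of 0.1 and 4.37 by DESeq2 on the recovered reads. In controls the SD, 40.3% of the mean, was smaller than the 48.0% that counting alone gives. In LKO livers it was 51.2% against 10.2%. Among the genes tested, 30 had a log2 difference above 2, of which 20 had groups that did not overlap, and 15 of the 30 had at least 10 reads in every LKO liver.

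Cfap53 and Mbd1 are next to each other. Mbd1 lies at chr18:74267605-74282732 and Cfap53 at chr18:74283090-74359986, both on the plus strand, and 357 bases separate the end of Mbd1 from the start of Cfap53. No GENCODE transcript has exons in both genes (0 found). Mbd1 was among the more abundant of the 6 genes and Cfap53 the least abundant, so Cfap53 reads came to 0.0913, 0.211 and 0.145% of Mbd1 reads in controls. In the LKO livers the share was 2.68, 1.07 and 2.82%. Per length, Cfap53 stood at 0.384% ± 0.154 of the Mbd1 level in controls and at 5.64% ± 2.51 in LKO livers (SD, n = 3 each). Whether any Cfap53 reads come from transcripts that run on past the end of Mbd1 was not tested, since the deposited table gives 1 value per gene and no positions of reads.

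Mbd1 itself had normalized read counts of 3064, 3035 and 2929 in controls. The LKO livers had 3914, 3702 and 4622, all above every control. The means were 3009 ± 70.9 and 4079 ± 482 (SD, n = 3 each), a ratio of 1.36 and a log2 difference of 0.43 (SE 0.082). The controls lay close together, with an SD of 2.36% of the mean, and the LKO livers spread to 11.8%.

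Fbxo21 was the most abundant of the 6. Its normalized read counts were 5930, 5709 and 5295 in controls and 8529, 7124 and 7655 in LKO livers. The lowest LKO value was 1.20 times the highest control, the narrowest gap of the 6. The means were 5645 ± 322 and 7769 ± 710 (SD, n = 3 each), a ratio of 1.38 and a log2 difference of 0.46 (SE 0.076).

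The Fbxo21 gene lies on the plus strand of chr5:117976730-118010201. Its promoter window, chr5:117976520-117976819, is shown beside that of Cdcp1 because both held 3 GC boxes, in capitals. The last of the 3 is on the opposite strand and so reads CCGCCC.
Fbxo21: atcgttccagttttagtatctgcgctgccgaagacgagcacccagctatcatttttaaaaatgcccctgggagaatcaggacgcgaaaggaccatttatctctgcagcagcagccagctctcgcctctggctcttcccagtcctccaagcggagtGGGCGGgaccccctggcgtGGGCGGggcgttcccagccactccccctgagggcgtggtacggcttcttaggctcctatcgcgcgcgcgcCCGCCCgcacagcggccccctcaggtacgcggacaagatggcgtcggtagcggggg

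Here GC made up 63.7% of the window and the observed to expected CpG ratio was 0.890.

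Nxpe2 had normalized read counts of 2205, 2117 and 2021 in controls. The LKO livers had 3086, 2768 and 3353. The groups were apart by a factor of 1.26 between their nearest livers. The means were 2114 ± 92.3 and 3069 ± 293 (SD, n = 3 each), a ratio of 1.45 and a log2 difference of 0.53 (SE 0.077).

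Nxpe2 lies on the minus strand of chr9:48318006-48353454, inside the span of its relative Nxpe4 on the plus strand, with which it shares 0 exonic bases. The RefSeq start used for its promoter window, chr9:48340849-48341148, is within the GENCODE span of the gene. This window is shown because it differs in kind from the other 2. It has no GC box, its CpG ratio is 0.229, and a run of 12 letters, GGAGCACTATCA, occurs in it 3 times, in capitals.
Nxpe2: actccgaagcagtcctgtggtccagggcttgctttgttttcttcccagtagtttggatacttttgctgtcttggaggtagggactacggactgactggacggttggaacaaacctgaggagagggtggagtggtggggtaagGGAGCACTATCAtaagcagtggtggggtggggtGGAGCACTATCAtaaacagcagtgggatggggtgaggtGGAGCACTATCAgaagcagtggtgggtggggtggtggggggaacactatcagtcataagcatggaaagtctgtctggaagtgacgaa

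Of all 32851 windows, only this 1 (0.00304%) held that run. The run was picked from this same window, so its share of all windows cannot say how unusual the window is. How many windows hold some repeated run of that length was not counted. The Nxpe2, Cdcp1 and Fbxo21 windows had 0 matches on either strand to the nuclear receptor half-site AGGTCA (in 16.3% of all windows), to the LXR DR4 element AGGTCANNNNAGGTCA (0.0152%), to the sterol regulatory element TCACNCCAC (1.24%), to CCAAT (37.4%), to the TATA box TATAAA (13.6%) or to the E-box CACGTG (7.15%). A lack of matches says only that these letters are not in these windows.

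The 6 genes did not share 1 order of the LKO livers. Nxpe2, Cfap53 and Mbd1 were highest in Blnc1 LKO 3 and lowest in Blnc1 LKO 2. Ly6k was the reverse at its top, with Blnc1 LKO 2 at 145% of the LKO mean, where Cfap53 stood at 43.1%. Cdcp1 and Fbxo21 were both highest in Blnc1 LKO 1, at 110% of their LKO means.

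**Figure D2:**
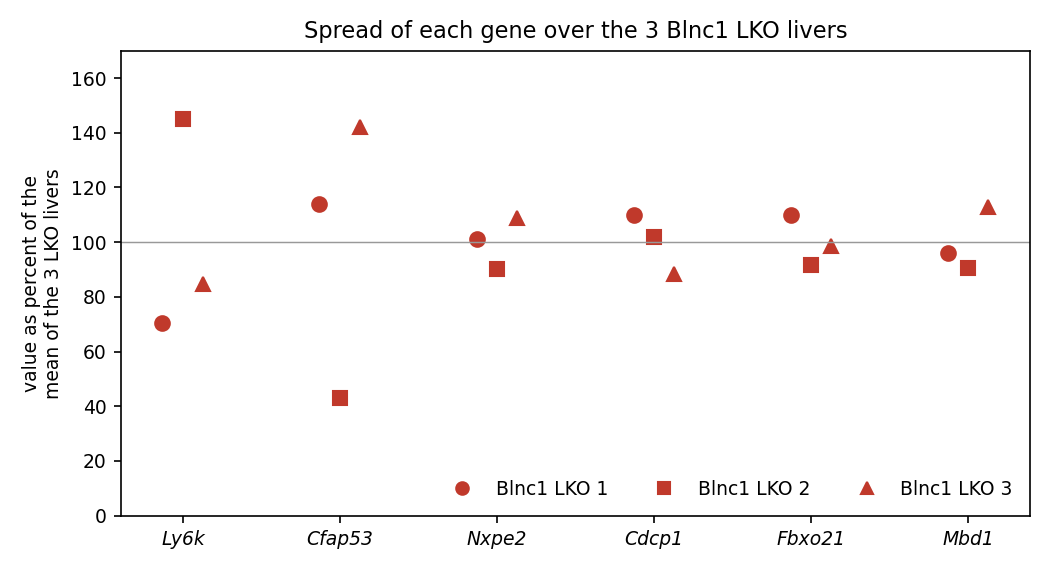
Value of each gene in the 3 Blnc1 LKO livers as a percent of the gene's own LKO mean (y axis, from 0; the line is 100%). Cfap53 and Ly6k spread widely and in different livers (Cfap53 43.1 to 142%, Ly6k 70.3 to 145%), while the other 4 genes stayed between 88.4 and 113%.

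Deviations of each gene from its group means, taken over the 6 livers, correlated at r = 0.92 for Nxpe2 with Mbd1, 0.69 for Cfap53 with Nxpe2 and 0.68 for Cfap53 with Mbd1. They ran opposite for Ly6k with Fbxo21 (-0.91), with Nxpe2 (-0.76) and with Cfap53 (-0.69). Over the 3 LKO livers alone, Cfap53 stood at 0.96 with Nxpe2 and 0.81 with Mbd1. In controls Cfap53 was highest in control 2, where Nxpe2 and Mbd1 were highest in control 1. The control values of Cfap53 rest on 3, 6 and 4 reads. All these correlations are descriptions over at most 6 livers whose points share library, depth and scaling.

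Blnc1 LKO 3 stood apart in neutrophil markers, whose 6 genes summed to 5248 there and to 1071 to 1664 in the other 5 livers. For the 3 genes that were highest in that liver, the log2 differences without it were 3.63 against 3.96 with it for Cfap53, 0.47 against 0.53 for Nxpe2 and 0.34 against 0.43 for Mbd1, and the selection fixes that they stay above 0. Hepatocyte marker sums overlapped between groups (5718435 to 6337994 in controls, 5686433 to 6767085 in LKO livers), as did those of cholangiocytes (63701 to 76968 and 51414 to 76896) and lymphocytes (1723 to 2266 and 1671 to 2175), and in these 3 lists no marker had groups that did not overlap. Alb made up most of the hepatocyte sums (4055055 of 5912129 in control 1). Spp1 made up most of the cholangiocyte sums (57143 of 63701 in control 1, where Krt19 stood at 369). These sums therefore say little about the other markers of their lists. Kupffer cell and macrophage markers summed to 66083 to 74080 in controls and 69357 to 78365 in LKO livers. Of these 10 markers, 6 had a higher mean, 1 (Adgre1, log2 difference 0.15) was higher in every LKO liver (5.35% of all genes were), and limma and DESeq2 called 0. At an unadjusted limma p under 0.05, 4 were higher (Adgre1, Clec4f at 0.46, Vsig4 at 1.04 and Timd4 at 1.10) and 1 lower (Gpnmb at -0.54), against 2.94% and 2.74% of all genes. Stellate cell markers summed to 88204 to 92696 in controls and 74916 to 88846 in LKO livers, and 3 of the 10 (Col1a1, Col1a2 and Acta2) were lower in every LKO liver, against 5.28% of all genes. The DESeq2 adjusted p of these 3 was 0.00462, 0.0161 and 0.0157, and the limma adjusted p 0.548 for each. Endothelial markers summed to 27544 to 29459 in controls and 26670 to 27922 in LKO livers, with 2 of 9 (Pecam1 and Cdh5) lower in every LKO liver, against the same 5.28%. At an unadjusted limma p under 0.05, 3 of the 9 were lower (Pecam1, Cdh5 and Lyve1, the last at -0.57 with overlapping groups) and 0 higher. Of all genes, 2.74% and 2.94% were. The 2 pancreatic acinar markers listed summed to at most 10.9 in any liver. No cell type marker in the table was at 0 in all 6 livers. The part of other cell types in the 6 differences was not tested, and in whole liver a change in the number of cells of a type cannot be told apart from a change in RNA per cell.

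Leaving out each liver in turn moved the log2 difference of Ly6k between 2.48 and 3.01 and that of Cfap53 between 3.63 and 4.48. It stayed between 0.47 and 0.61 for Nxpe2, 0.59 and 0.78 for Cdcp1, 0.39 and 0.52 for Fbxo21, and 0.34 and 0.50 for Mbd1. The direction could not change when a liver was left out, since the genes were selected for groups that do not overlap.

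**Figure D3:**
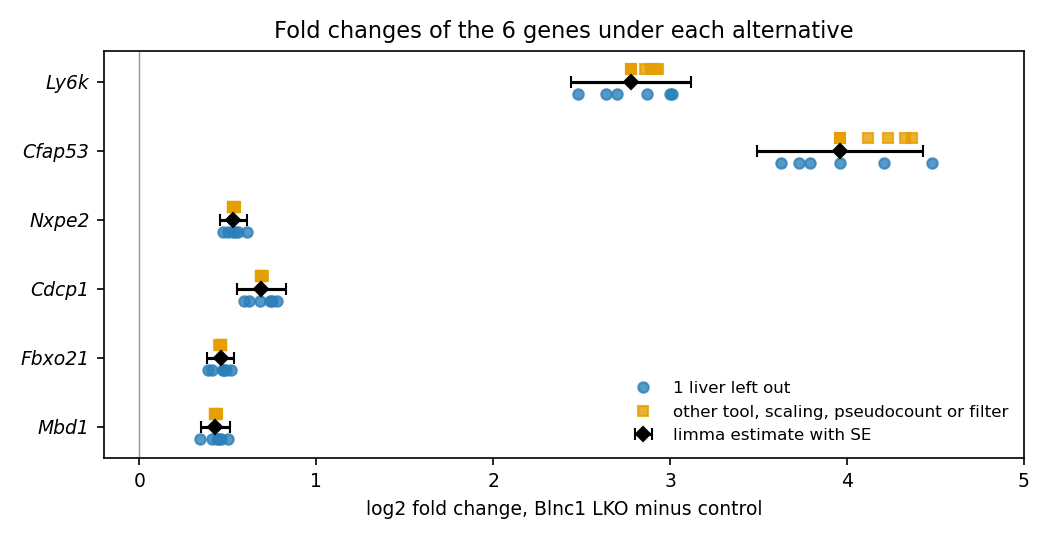
Log2 fold change (x axis, Blnc1 LKO minus control) of each gene by limma with its SE (diamonds), with 1 liver left out (circles) and with another tool, scaling, pseudocount or filter (squares). Ly6k moves between 2.48 and 3.01 with a liver left out and Cfap53 between 3.63 and 4.48, while the other 4 genes keep to narrow ranges below 0.8.

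For the chromosomal surroundings, the 2 nearest listed genes on each side of each gene were taken, 20 in all since Cfap53 and Mbd1 share theirs. By limma on log2(value + 1) with Benjamini-Hochberg adjustment over all genes, 0 of the 20 passed an adjusted p of 0.05, where 1 of 17297 genes did (0.00578%). At an unadjusted p under 0.05 there were 0 higher and 4 lower, against 2.94% and 2.74% of all genes. No neighbour had all LKO values above the controls and 3 had all below, against 5.28% of all genes in that direction. The mean log2 difference was above 0 for 5 and below 0 for 15, with a median of -0.10.

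Next to Cdcp1, 13.4 kb away on the opposite strand, lies Clec3b, which encodes tetranectin, a plasminogen-binding lectin. Its normalized read counts were 112, 142 and 111 in controls and 15.5, 14.1 and 26.7 in LKO livers, a log2 difference of -2.68 (SE 0.27). The limma adjusted p was 0.0515, just over the threshold, while DESeq2 gave 3.41e-13 and edgeR 0.0488. Cdcp1 reads were 1.54, 1.49 and 1.95 times the Clec3b reads in controls and 22.9, 23.4 and 10.7 times in LKO livers. Cdcp1 was selected as raised in these livers, so part of this rise was fixed in advance. Most of it came from Clec3b, with means of 121.5 in controls and 18.8 in LKO livers, where the Cdcp1 means differed by a factor of 1.62. On the other side of Cdcp1, Tmem158 had a log2 difference of -0.42 (limma adjusted p = 0.927).

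Around Ly6k, in a cluster of Ly6-related genes, the neighbours had negative differences. Ly6d stood at -0.49 (limma adjusted p = 0.840), with overlapping groups. Gml had 8.39, 14.9 and 8.52 in controls and 5.95, 4.70 and 5.01 in LKO livers, a log2 difference of -0.86 with an adjusted p of 0.873 by limma. Gml2, beyond it, had 12.1, 7.46 and 8.52 in controls and 3.57, 3.76 and 2.51 in LKO livers (-1.26, limma adjusted p = 0.752). Both rest on a handful of reads per liver. Cxxc1 and Myo5b, on either side of the Mbd1 and Cfap53 pair, differed by 0.05 and -0.02. Nos1 and Tesc, beside Fbxo21, differed by -0.24 and -0.01, and Nxpe4 and Gm8884, beside Nxpe2, by 0.26 and -0.90, the last from at most 3.20 normalized reads in any liver.

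**Figure D4:**
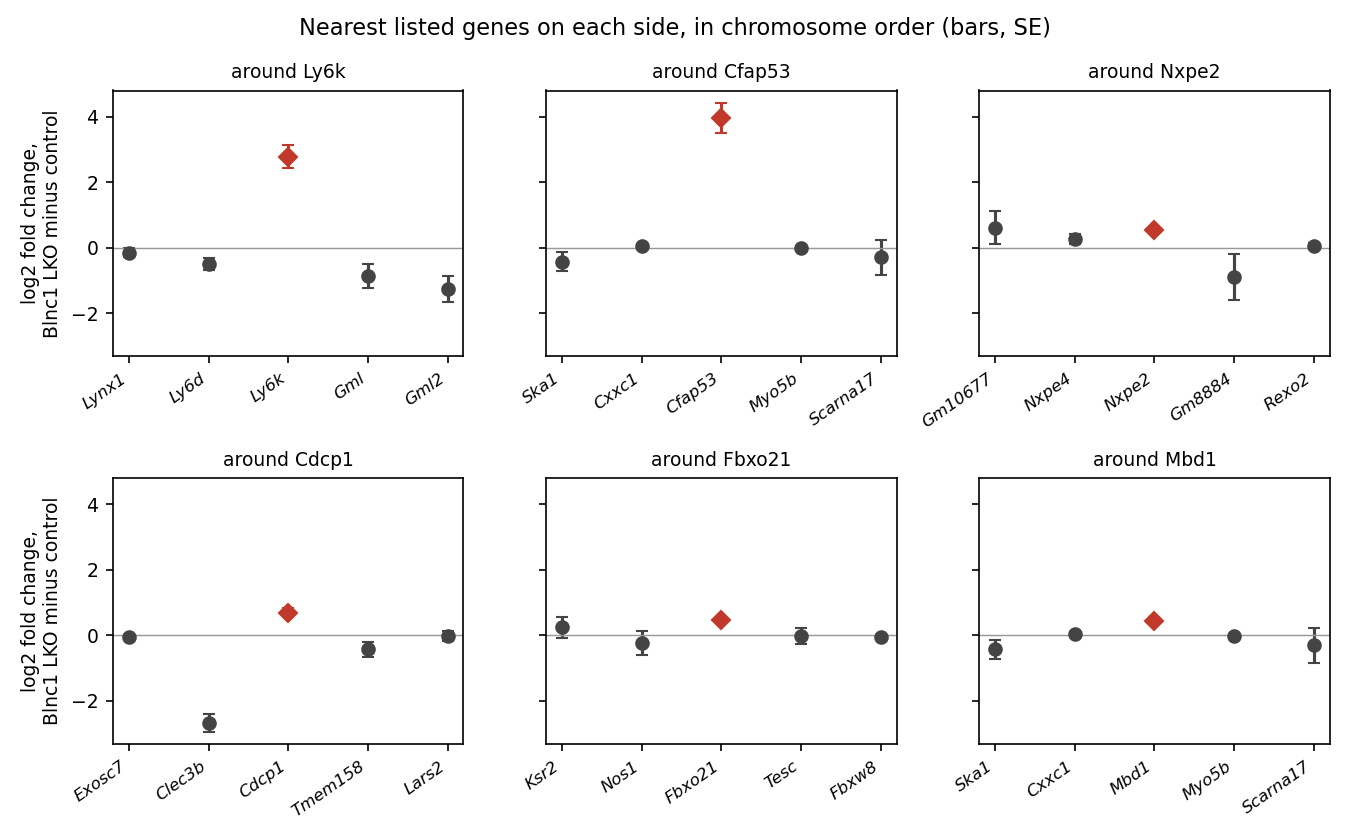
Log2 fold change (y axis, Blnc1 LKO minus control; bars are SE) of each gene (diamond) and of the 2 nearest listed genes on each side (circles), in chromosome order along the x axis and not to scale. The diamonds stand above their neighbours except at Nxpe2 (0.53), where the low-count neighbour Gm10677 lies higher at 0.61 (SE 0.50). Clec3b beside Cdcp1 lies far below 0 at -2.68.

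The relatives and known partners of the 6 genes were taken as lists from gene families and biochemistry. Of 269 genes listed, 236 were in the table and 231 passed the filter. None was called by limma (0 of 231), 9 had an unadjusted p under 0.05, edgeR called 0, and DESeq2 on recovered reads called 1, lower, where it called 0.288% of its genes higher and 0.250% lower. Of the 9, 2 were higher and 7 lower, where 2.94% and 2.74% of all genes were. In 114 the mean log2 difference was above 0 and in 117 below, and 7 had all LKO values above and 7 all below the controls, against 5.35% and 5.28% of all genes. With 3 livers against 3 the smallest two-sided p of an exact permutation test on any 1 gene is 0.1.

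Among 20 tested Ly6/uPAR genes, 8 had a higher and 12 a lower mean, with a median log2 difference of -0.07. Gpihbp1, which carries lipoprotein lipase across capillary walls, stood at -0.14 (limma adjusted p = 0.904), the stem cell antigen Ly6a at -0.08, Ly6e at -0.06 and the urokinase receptor Plaur at -0.17. The gene of this family nearest to Ly6k in size of difference was Ly6g6f, at 2.19, but its LKO livers held only 4.76, 1.88 and 10.03 normalized reads and its controls 0.932, 0 and 0 (limma adjusted p = 0.715). It was singled out after its values were seen.

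Among 61 tested motile cilium genes, 37 had a higher and 24 a lower mean, with a median of 0.06. Foxj1, the master regulator of motile cilia, stood at 0.03. The axonemal dyneins Dnah5 and Dnah11 stood at -0.06 and 0.05, Ccdc39 at -0.11, Mns1 at -0.01 and Cfap36 at 0.08. Cfap69 had the smallest unadjusted p of the more abundant members, at -0.58 with an adjusted p of 0.840 by limma, and Cfap97 stood at 0.13 (limma adjusted p = 0.899). The 63 cilium genes in the table summed to 9761 to 10302 in controls and 9853 to 11105 in LKO livers. The value of 11105 was in Blnc1 LKO 2, the liver with the least Cfap53 of the 3. A few abundant genes carry much of these sums. Control means were 2336 for Cfap20, 1501 for Cfap36 and 1180 for Cfap97, but 55.4 for Dnah5 and 16.6 for Tekt1. Whether the sums follow ciliated cells was not tested.

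The other Nxpe genes were few. Nxpe4, whose span contains Nxpe2, stood at 0.26 (limma adjusted p = 0.934), Nxpe3 at 0.08 and Nxpe5 at -0.48, and the groups overlapped for all 3.

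Of 36 Cdcp1 kinases, proteases and partners, 14 had a higher and 22 a lower mean (median -0.02). The kinases Src, Yes1 and Fyn stood at -0.15, -0.01 and -0.07, and protein kinase C delta (Prkcd) at -0.02. Plasminogen (Plg) stood at 0.11, matriptase (St14) at -0.10, the Cdcp1 binding partner Cd6 at -0.14 and E-cadherin (Cdh1) at 0.15. The cell surface heparan sulfate proteoglycan Sdc1 had 14301, 13814 and 15708 in controls and 11775, 12039 and 11174 in LKO livers, a log2 difference of -0.32 (adjusted p = 0.548 by limma and 0.00732 by DESeq2). Plau, the urokinase that activates plasminogen, stood at -0.37 (adjusted p = 0.548 by limma and 0.0663 by DESeq2), with every LKO value below the controls.

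Of 73 SCF ligase genes and Fbxo21 substrates, 36 had a higher and 37 a lower mean, with a median difference of -0.00. The core subunits Skp1a, Cul1 and Rbx1 stood at -0.01, -0.02 and 0.03. The substrates Eid1 and Map3k5 stood at -0.08 and 0.08, and the F-box genes Fbxo31, Fbxl5 and Fbxl20 at 0.08, -0.03 and 0.10. Abcb1a stood at -0.28 (limma adjusted p = 0.851).

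Of 39 methyl-CpG readers and Mbd1 partners, 17 had a higher and 22 a lower mean (median -0.02). The relatives Mbd2 and Mbd3 stood at 0.03 and -0.05. Setdb1 and Atf7ip, through which Mbd1 represses, stood at 0.03 and -0.06, and Tet2 at -0.15. The maintenance methyltransferase Dnmt1 stood at -0.22 (limma adjusted p = 0.879) and its partner Uhrf1 at -0.40 (limma adjusted p = 0.891), both with every LKO value below the controls.

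**Figure D5:**
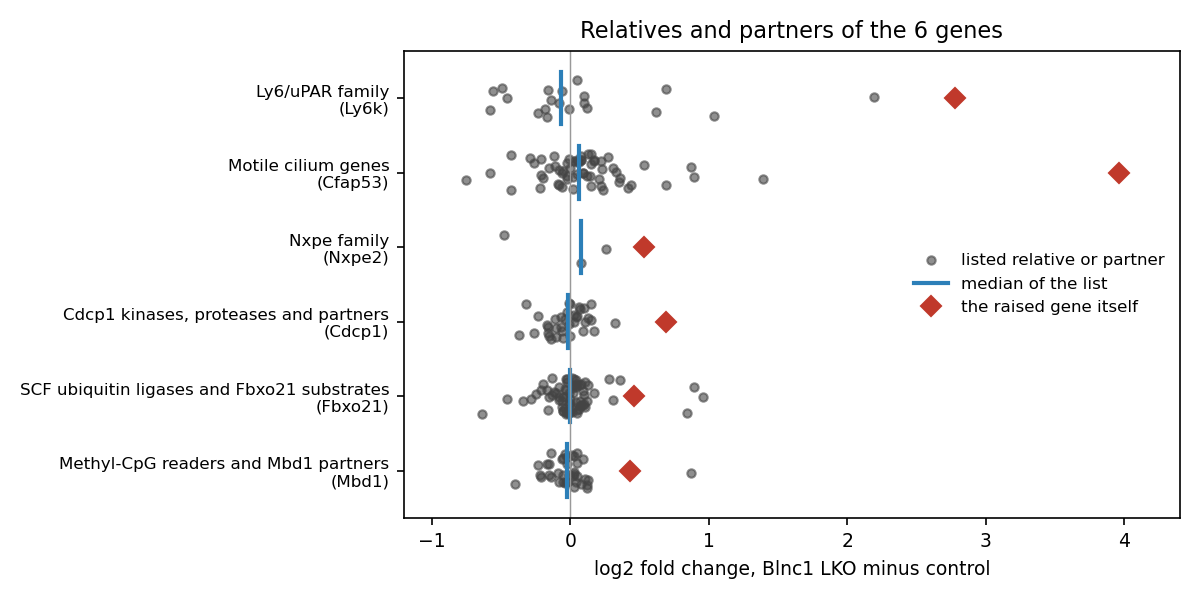
Log2 fold change (x axis, Blnc1 LKO minus control) of the tested relatives and partners of each gene (circles), the median of each list (line) and the gene itself (diamond); circles are scattered vertically for clarity. The medians lie between -0.07 and 0.08, and the circles beyond 0.8 are genes of low counts.

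The genes whose log2 values ran most like each of the 6 over the 6 livers were sought among 12859 genes with a mean of at least 1 CPM. For Ly6k they were Gstp2 (Pearson r = 0.974), B9d1 (0.964) and Mdm1 (0.963). Gstp2, a glutathione transferase, had 198, 186 and 225 in controls and 251, 318 and 284 in LKO livers. For Cfap53 they were Slc25a42, a mitochondrial coenzyme A carrier (0.985), Kat8 (0.983) and Nelfcd (0.982). Slc25a42 also headed the list of Nxpe2 (0.985), before Gria3 (0.982) and Tmem62 (0.979).

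For Cdcp1 the most alike were the glucose transporter Slc2a8 (0.998), Afp (0.988) and Cav1 (0.986). Cav1, the coat protein of caveolae, had 518, 689 and 731 in controls and 1228, 1035 and 879 in LKO livers. For Fbxo21 they were BC048403 (0.991), Jpx (0.991) and Fcna (0.987), and for Mbd1 Inafm2 (0.991), Cdk5rap3 (0.986) and Zdhhc4 (0.984). Their log2 differences between groups ran from 0.09 (Nelfcd and Cdk5rap3) to 0.70 (Cav1). These correlations, the highest of 12859 candidates, include the difference between groups on which the 6 genes were selected, and are descriptions over 6 livers that share depth and scaling.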

How the data were processed

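Liver RNA from 3 control and 3 Blnc1 LKO mice was sequenced from poly(A)-selected libraries of a kit that does not mark strand. Per the labels and methods, the authors used STAR for alignment (mm10), HTSeq for gene counts and DESeq2 (FastQC is also in the submitters' processing notes). Versions, and whether strand was used in counting, are not given in the sources used here. The deposited values (unit, signal) are gene counts divided by 1 size factor per liver. Every one of the values checked, up to 1000 reads, came out as a whole read within 0.1 (100.0% per liver). Columns were tied to samples by group and replicate number. The 17460 genes include 23 date-like symbols.

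limma 3.58.1 (R 4.3.3; moderated test with a mean trend) was run on log2(value + 1) for genes at 1 or more in at least 3 livers; p-values were adjusted (Benjamini-Hochberg) over all genes tested, with a threshold of 0.05. It was tested on simulated data. DESeq2 1.42.0, edgeR 4.0.16 and voom on recovered reads, another pseudocount (0.1), other filters, total-read scaling, a replicate block and leaving out each liver were alternatives. Levels per length used GENCODE M21 exonic bases (16733 of the symbols). Promoters came from RefSeq GRCm38.p6, and those of Nxpe2, Cdcp1 and Fbxo21 (3 of the 6 genes) were used.

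The 6 genes and the gene lists were chosen with earlier results of these data known. Named were the 6 genes, set anchors of each list, and the 2 relatives per list with the smallest p at a mean of at least 50. Also named were the nearest neighbour on each side, the 6 genes left out, and the 3 most correlated genes per member. Gml2, Ly6g6f and the single cell type markers were named after their values were seen, and 1 anchor is not reported here.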

Additional observations from a re-analysis of the deposited data

How the results depend on the processing

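The 6 genes kept differences above 0 in all 82 values under 14 alternatives, each within 1 pooled within-group SD of the value given. These counts are no check on the differences. The selection nearly fixes the sign, and leaving out 1 of 3 livers cannot move a value by 1 such SD. The replicate block and the lack of a filter leave the estimates as they were by design. Asking for 10 or more reads per liver left out 2 of them, Ly6k and Cfap53. The count of genes called over the whole table, 1 by limma, was 2 with no filter on low values, 2 by edgeR and 84 by DESeq2 (45 higher, 39 lower), and ranged from 0 to 13 when a liver was left out (0 without control 1, 3 without control 2, 2 without Blnc1 LKO 1, 13 without Blnc1 LKO 2). Related genes called, 0 by limma, were 1 by DESeq2 (Sdc1). Neighbouring genes called, 0 by limma, were 1 with no filter, 1 by DESeq2 and 1 by edgeR, and 0 to 1 when a liver was left out (1 without Blnc1 LKO 2 or Blnc1 LKO 3), each time Clec3b; the cause was not tested.

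With a replicate block the count over the whole table was 0. Deviations of the livers with the same number correlated at -0.058, -0.019 and -0.107, so no shared deviation was seen. Such correlations cannot tell whether livers of the same number were handled together. Of 710 values of the other 51 named genes, 704 kept their call, 6 passed the threshold only under an alternative (Clec3b and Sdc1), and 28 had the opposite sign. Depth limits Ly6k and Cfap53 most, with at most 14 and 6 reads in a control liver.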
